A study of Mus musculus with 4 samples.

Results

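The AP-1 transcription factor subunits described here are the products of 10 genes: Fos, Fosb, Fosl1 and Fosl2 of the FOS family, Jun, Junb and Jund of the JUN family, Batf and Batf3 of the BATF family, and Maff, a small MAF protein. They were chosen by gene name among the non-control probes of the arrays, which gave 11 probes for 10 genes, out of 55675 probes for 35180 genes or transcripts. Their symbols were unchanged when the probes were renamed through RefSeq accessions. All 10 genes were well above background (a flag the scanner software sets for a spot clearly brighter than its surroundings) on at least 1 array, and 9 were on all 4. Fosl1 was not well above background on 1 array.

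The arrays measured RNA of LSK cells, the fraction of mouse bone marrow without lineage markers and with Sca-1 and c-Kit that holds the haematopoietic stem and multipotent progenitor cells. There was 1 single-colour Agilent array for each of the 4 genotypes, which were WT (wild type), Aspp1-/-, p53-/- and the double knockout, Aspp1-/-p53-/-. Each array held RNA pooled from 3 mice, so there were no replicates, no test between 2 arrays was possible, and the spread between mice is unknown. All mice were C57BL/6 males aged 12 weeks. All of them, WT included, had received 5 injections of pIpC, an inducer of interferon, every other day from the age of 8 weeks, and LSK cells were collected after a further 4 weeks. The design text gives a dose of 400 μg, whereas the labels of the 4 samples read 400, 401, 402 and 403 μg. The p53 allele was floxed and deleted through Mx1-Cre, whose promoter answers to interferon in many tissues, whereas Aspp1 (gene symbol Ppp1r13b) was lost constitutively. The WT and Aspp1-/- arrays lay in row 1 of the slide and the p53-/- and double-knockout arrays in row 2, so loss of p53, presence of Mx1-Cre and slide row cannot be told apart. Comparisons of Aspp1 loss lay within a row but crossed slide columns. WT was in column 1 and Aspp1-/- in column 2, p53-/- in column 1 and the double knockout in column 4. Loss of Aspp1 and slide column therefore cannot be told apart.

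AP-1 is a family of dimers of basic leucine zipper proteins. FOS proteins cannot pair with themselves and need a JUN partner, JUN proteins pair with FOS, with each other or with ATF proteins, and the dimers bind the palindromic AP-1 element or the related cyclic AMP response element (CRE). BATF and BATF3 also pair with JUN proteins but lack a transactivation domain, and work together with IRF4 and IRF8 at composite sites in lymphoid and dendritic cells. The small MAF proteins, MAFF among them, lack such a domain too and pair with NFE2-type and BACH factors. Many of these genes are immediate-early genes, transcribed within minutes of mitogens, cytokines, stress or tissue handling, and their RNAs are short-lived. In blood stem and progenitor cells JUNB is known as a brake on myeloid expansion.

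The sequences upstream of the members whose values carry the results are shown because several of these genes share a mode of induction. RefSeq (GRCm38.p6) windows of 250 bases before the annotated start were found for 9 of the 10 members, in 11 windows. Fosl1 had no entry. The windows below are 5′ to 3′ on the gene's strand. Capitals mark every match to a motif searched on both strands: the AP-1 element TGACTCA, the CRE TGACGTCA, the proximal and distal jun elements TGACATCA and TTACCTCA, the CRE half-site TGACG, which is part of the CRE, and the CArG box bound by SRF. The distal jun element and the half-site were added to the search after the sequences had been read.
Fos (chr12:85473640-85473889, + strand): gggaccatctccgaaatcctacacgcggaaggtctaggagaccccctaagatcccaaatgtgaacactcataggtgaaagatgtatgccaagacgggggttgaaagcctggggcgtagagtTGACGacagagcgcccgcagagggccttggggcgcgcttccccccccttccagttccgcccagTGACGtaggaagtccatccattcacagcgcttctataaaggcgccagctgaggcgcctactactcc
Fosb (chr7:19310046-19310295, - strand): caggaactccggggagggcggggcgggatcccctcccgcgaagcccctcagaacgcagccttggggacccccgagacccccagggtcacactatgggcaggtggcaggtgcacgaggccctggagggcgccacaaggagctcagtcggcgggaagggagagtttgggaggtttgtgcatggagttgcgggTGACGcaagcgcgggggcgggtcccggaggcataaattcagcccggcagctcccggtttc
Fosl2 (chr5:32136222-32136471, + strand): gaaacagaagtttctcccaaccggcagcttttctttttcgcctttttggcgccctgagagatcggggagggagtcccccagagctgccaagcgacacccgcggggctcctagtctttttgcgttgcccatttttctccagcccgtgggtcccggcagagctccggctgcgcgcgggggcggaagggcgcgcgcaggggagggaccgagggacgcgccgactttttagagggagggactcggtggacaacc
Jun (chr4:95052223-95052472, - strand): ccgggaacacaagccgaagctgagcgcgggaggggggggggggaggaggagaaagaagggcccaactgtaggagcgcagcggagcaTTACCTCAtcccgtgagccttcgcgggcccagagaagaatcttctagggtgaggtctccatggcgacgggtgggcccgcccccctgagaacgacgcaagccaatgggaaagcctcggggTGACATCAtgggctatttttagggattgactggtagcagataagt
Maff (chr15:79347270-79347519, + strand): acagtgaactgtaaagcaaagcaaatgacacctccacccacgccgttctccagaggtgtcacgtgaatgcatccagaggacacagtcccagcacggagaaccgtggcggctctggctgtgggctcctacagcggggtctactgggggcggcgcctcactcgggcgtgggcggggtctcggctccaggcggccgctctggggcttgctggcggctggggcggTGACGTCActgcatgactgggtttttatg
Batf (chr12:85686470-85686719, + strand): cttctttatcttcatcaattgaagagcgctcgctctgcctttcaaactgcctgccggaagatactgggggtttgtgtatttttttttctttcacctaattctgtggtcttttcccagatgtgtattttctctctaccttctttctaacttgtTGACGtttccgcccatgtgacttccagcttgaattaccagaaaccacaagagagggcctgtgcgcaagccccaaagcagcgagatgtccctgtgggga
Of these windows, that of Fos held the CRE half-site at 66 to 62 and at 129 to 125 bases before the start, and that of Fosb held it at 60 to 56. In the window of Jun, the proximal jun element lay at 45 to 38 bases and the distal one at 164 to 157. The window of Maff shown is 1 of 3 for that gene and the only one with a full CRE, at 29 to 22 bases. Its window at chr15:79346371-79346620 held no match, and that at chr15:79348152-79348401 held a proximal jun element and a half-site. Fosl2 held no match, and Batf held 1 half-site, at 98 to 94. Among 32851 promoter windows of the same length, 17.8% held the half-site, 1.55% the CRE, 2.93% the proximal and 0.728% the distal jun element. The AP-1 element (4.46% of all windows) and the CArG box (1.47%) were in none of the members' windows. A match of letters is a description, not a binding site, and the absence of one says nothing of the factor.

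In the double-knockout cells, 8 of the 10 subunits had their lowest signal of the 4 arrays. The share was 29.7% over the genes well above background on all 4. Fosl1, which is among the 8, was not well above background in the double knockout. The BATF genes had their highest scaled signal there, though Batf exceeded p53-/- by only 0.07 ± 0.20 log2 units. The values below are scaled log2 signals: the log2 of the background-subtracted spot intensity less the 75th percentile of the array, so that 0 marks a spot brighter than 75% of the others. Each difference has beside it the error that the scanner software gives for the 2 signals, which does not cover the spread between mice. For bright probes this error was the same on every array, at 0.14 log2 units per signal for Fos, Fosb, Jun and Jund. It was the same for 1 spot as for 10, so it is not a spread measured between spots. For the Fos spots, the standard deviation on an array was 0.038 to 0.050. A gene counted as lower or higher where the difference was 1 log2 unit (2-fold) or more.

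**Figure D1:**
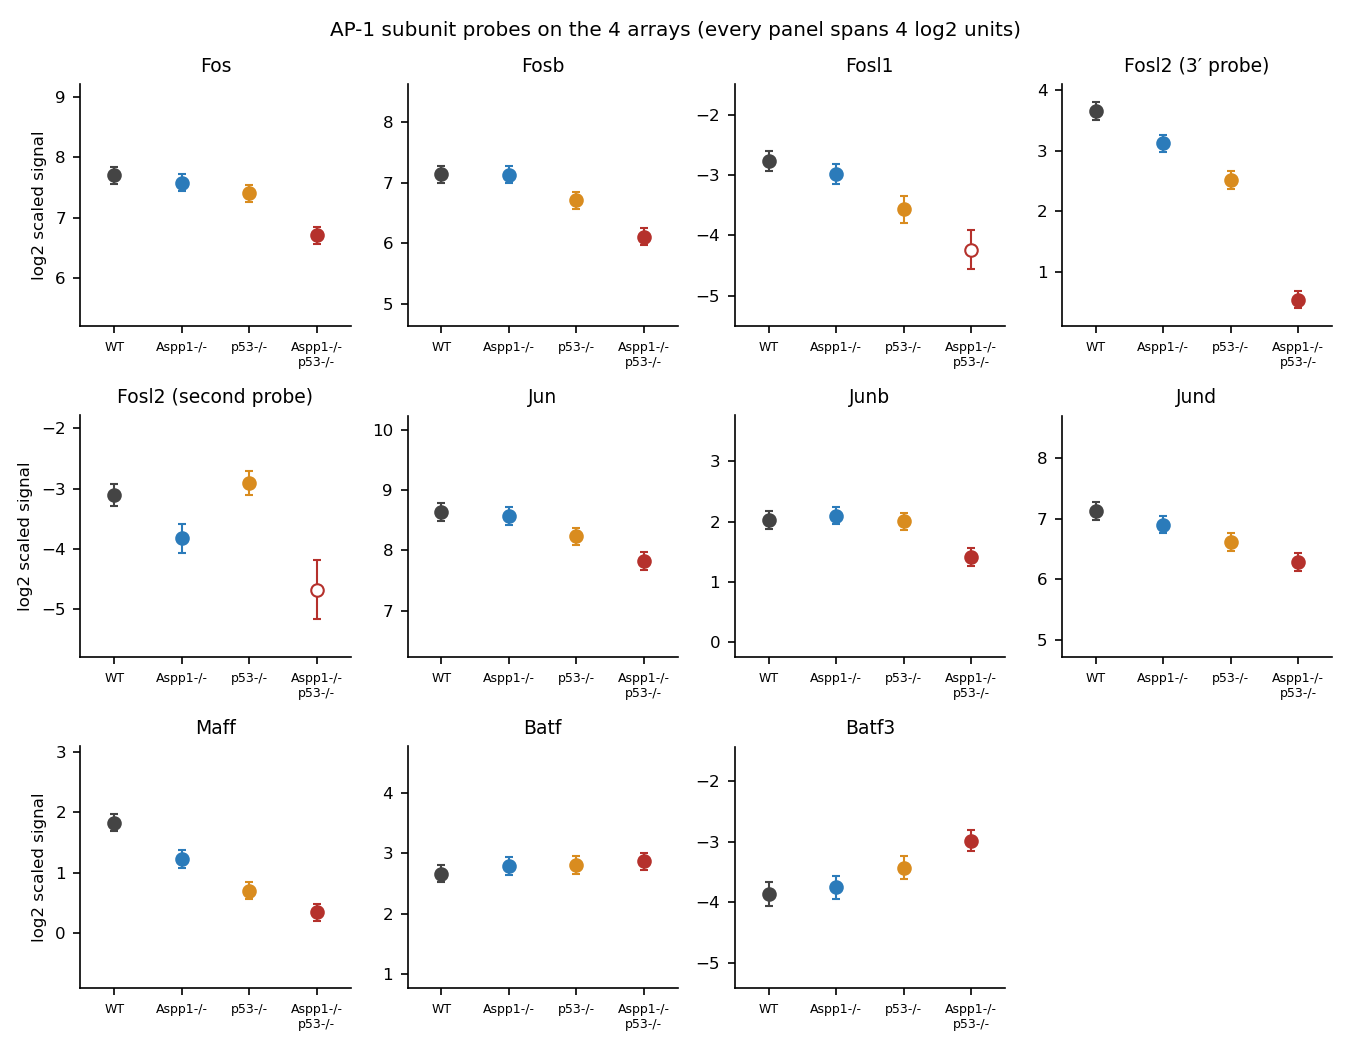
Scaled log2 signal (vertical axis) of each of the 11 AP-1 probes on the WT, Aspp1-/-, p53-/- and double-knockout (Aspp1-/-p53-/-) arrays, with the scanner error as bars and open circles for signals not well above background. Fosl2 spans 3.12 log2 units on its main probe, Batf spans 0.20, and the double knockout is lowest in every panel except those of Batf and Batf3.

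Fosl2, which encodes FRA2, a FOS-family protein with no strong transactivation domain, differed most. Its signal was 7200 on the WT array, 5225 on Aspp1-/-, 3327 on p53-/- and 779 on the double knockout. These are scaled log2 values of 3.66, 3.12, 2.52 and 0.54, in steps that each exceeded the scanner error of 0.20. The double knockout was lower than WT by a log2 difference of -3.12 ± 0.20 (8.69-fold), lower than Aspp1-/- by -2.59 ± 0.20 and lower than p53-/- by -1.98 ± 0.20. Among 19138 genes well above background on all 4 arrays, these differences ranked 6, 8 and 27 from the lowest. The p53-/- array was also past the 2-fold rule against WT, at -1.14 ± 0.20, and Aspp1-/- was not, at -0.53 ± 0.20.

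A second probe for Fosl2 did not give the same picture throughout. The main probe lies at chr5:32460076-32460135 (mm9, + strand) and starts at base 5726 of the transcript, and the second lies 4988 bases upstream at chr5:32455088-32455147, starting at base 738. The second probe was dim, with signals of 66.4 on WT, 42.3 on Aspp1-/-, 77.4 on p53-/- and 21.0 on the double knockout, the last not well above background. It was at least 2.74-fold lower in the double knockout than in WT and at least 3.14-fold lower than in p53-/-. Between p53-/- and WT it differed by 0.20 ± 0.27, the opposite sign to the main probe, so the call for Fosl2 in p53-/- rests on the main probe.

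Fos, the founding member and the usual partner of JUN after stimulation, was printed 10 times on each array (chr12:86817900-86817959, mm9). Its 10 spots read 111396 to 124401 with a mean of 118959 on WT, 109359 to 119440 with a mean of 114782 on Aspp1-/-, 92820 to 103562 with a mean of 98390 on p53-/-, and 53375 to 58045 with a mean of 56150 on the double knockout. The spots of WT and Aspp1-/- overlapped, those of p53-/- lay below all spots of both, and those of the double knockout lay below all others. The coefficient of variation between spots was 2.64% to 3.47%. The log2 difference from WT was -0.12 in Aspp1-/-, -0.30 in p53-/- and -0.99 in the double knockout, each ± 0.20, and the last was just short of the 2-fold rule. Repeat spots share 1 labelled RNA and say nothing of the spread between mice.

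**Figure D2:**
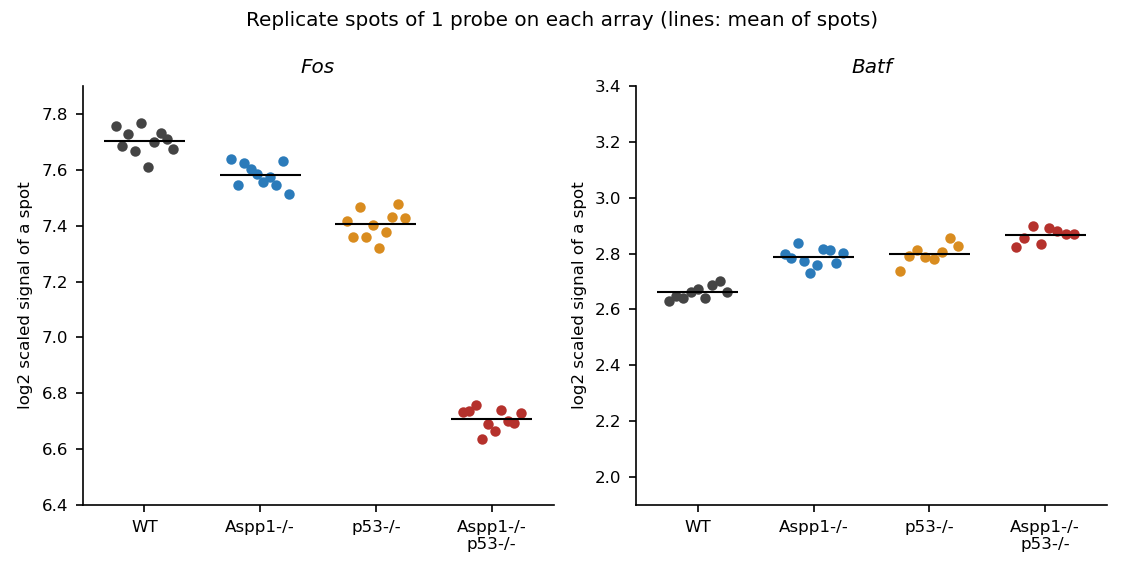
Scaled log2 signal of every spot used of the Fos probe (left) and the Batf probe (right) on the 4 arrays, outlier spots left out, with a line at the mean; both vertical axes span 1.5 log2 units. The Fos spots of the double knockout lie between 6.64 and 6.76, below the Fos spots of the other arrays, and the Batf spots of the 3 mutant arrays lie above all 9 WT spots used by small steps.

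Fosb, a close relative of Fos with a stable splice form, read 80606 on WT, 84235 on Aspp1-/-, 60801 on p53-/- and 37121 on the double knockout (chr7:19888168-19888227, mm9). WT and Aspp1-/- differed by less than the scanner error (-0.01 ± 0.20). The double knockout was just past the rule, with a log2 difference of -1.03 ± 0.20 from WT and -1.02 ± 0.20 from Aspp1-/-, and p53-/- differed from WT by -0.43 ± 0.20. Fosl1, which encodes FRA1 and is itself an AP-1 target, was dim, with signals of 83.7, 75.8 and 48.9 on WT, Aspp1-/- and p53-/-, and 28.5, not well above background, on the double knockout (chr19:5455496-5455555, mm9). The double knockout was 2.77-fold lower than WT and 2.39-fold lower than Aspp1-/-, both counted as bounds. Those bounds equal the measured differences, because the signal on the double-knockout array exceeded the lowest one that was well above background there. They are therefore not lower limits. With normexp background correction the log2 differences were -0.60 from WT and -0.52 from Aspp1-/-.

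The JUN genes shared the direction of the FOS genes against WT in the double knockout, but none was past the 2-fold rule in any comparison. Jun, whose protein is the main JUN partner of FOS and a substrate of JNK, read 227376 on WT, 227032 on Aspp1-/-, 174607 on p53-/- and 121822 on the double knockout (chr4:94716928-94716987, mm9). None of these reached the scanner's saturation value of 779252. Its log2 difference from WT was -0.81 ± 0.20 in the double knockout and -0.41 ± 0.20 in p53-/-. Jund, the least stimulus-dependent JUN gene, read 79918, 71483, 56967 and 41810 in the same order (chr8:73224436-73224495, mm9). Its signal stepped down between neighbouring arrays by more than the scanner error, to a difference of -0.85 ± 0.20 between double knockout and WT. Junb, the brake on myeloid growth named above, differed in shape, with 2325 on WT, 2562 on Aspp1-/-, 2329 on p53-/- and 1429 on the double knockout (chr8:87501881-87501940, mm9). The first 3 arrays lay within the scanner error of their neighbours, and only the double knockout stood lower, by -0.61 ± 0.20 from WT and -0.59 ± 0.20 from p53-/-.

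Maff read 2035 on WT, 1408 on Aspp1-/-, 947 on p53-/- and 684 on the double knockout (chr15:79189442-79189501, mm9). Each step exceeded the scanner error. The log2 difference from WT was -0.60 ± 0.20 in Aspp1-/-, -1.13 ± 0.20 in p53-/- and -1.48 ± 0.20 in the double knockout, the last 2 past the rule. Unlike Fosl2, Maff differed little between the double knockout and p53-/- (-0.36 ± 0.20).

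The BATF genes ran the other way, with small differences. Batf had 10 spots, of which 9, 10, 8 and 8 were used on WT, Aspp1-/-, p53-/- and the double knockout after outlier spots were left out (chr12:87049872-87049929, mm9). They averaged 3611, 4138, 4043 and 3915. After scaling, the log2 difference from WT was 0.13 in Aspp1-/-, 0.14 in p53-/- and 0.20 in the double knockout, with standard errors between spots of 0.012 to 0.015. The spots used on each mutant array lay above all WT spots used, but each difference was no larger than about the scanner error of 0.20. The WT spot left out as an outlier read 2.80 on the scaled log2 scale. That lay within the spots used on Aspp1-/- (2.73 to 2.84) and p53-/- (2.74 to 2.86), so the separation depends on leaving it out. Batf3, which is needed for cross-presenting dendritic cells, was dim at 39.2, 44.5, 54.1 and 68.1 (chr1:192932528-192932587, mm9). Its log2 difference from WT was 0.11 ± 0.28 in Aspp1-/-, 0.44 ± 0.28 in p53-/- and 0.88 ± 0.27 in the double knockout, where it ranked 248 from the highest of 19138 genes and fell short of the rule.

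Fos and Batf are near neighbours, with probes 232 kb apart on chromosome 12 (mm9). Between them lies Jdp2, which encodes a repressor that pairs with JUN proteins, with its probe 163 kb from that of Fos. In the double knockout against WT the log2 difference was -0.99 for Fos, -0.28 for Jdp2 and 0.20 for Batf.

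**Figure D3:**
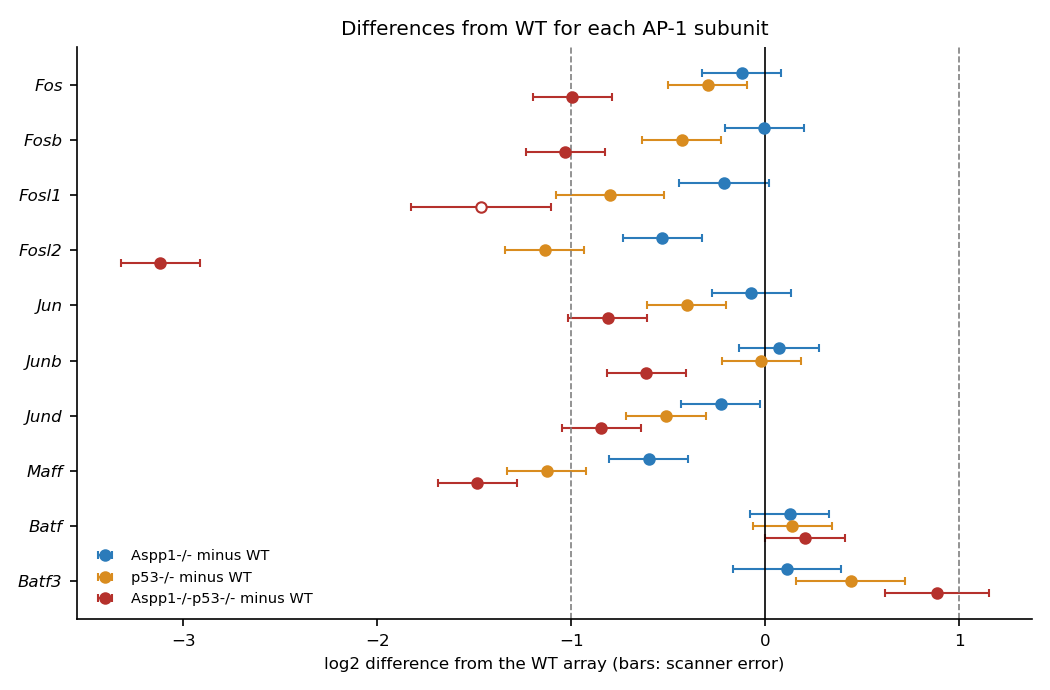
Log2 difference from the WT array (horizontal axis) for each AP-1 subunit in Aspp1-/- (blue), p53-/- (orange) and the double knockout (red), with scanner errors as bars; dashed lines mark the 2-fold rule and open circles mark bounds. Fosb, Fosl1, Fosl2 and Maff are past the rule in the double knockout, with Fos at -0.99 just inside the line.

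Counted together, 4 members were lower in the double knockout than in WT (Fosb, Fosl1 as a bound, Fosl2 and Maff), against 2.47% of 21429 genes or transcripts with a difference or bound. In p53-/- against WT, 2 were lower (Fosl2 and Maff), against 1.54% of 21573. In Aspp1-/- against WT none was lower, against 2.16% of 21710. Between the double knockout and Aspp1-/-, 3 were lower (Fosb, Fosl1 as a bound, and Fosl2), against 1.97% of 21285, and between the double knockout and p53-/-, 1 was lower (Fosl2), against 3.29% of 21318. No member was higher by the rule in any of these comparisons, where the share of higher genes was 1.32% for Aspp1-/-, 3.66% for p53-/- and 3.57% for the double knockout against WT, and 2.49% and 3.75% for the double knockout against p53-/- and Aspp1-/-. Many of those background calls were bounds of dim probes. Among the 19138 genes well above background on all 4 arrays, the shares lower by the rule were 0.251% in Aspp1-/- and 0.543% in p53-/- against WT, 1.45% in the double knockout against WT, 0.904% against p53-/- and 0.961% against Aspp1-/-. These comparisons share arrays, so their counts are not independent of each other. The calls near the threshold moved with the processing: against WT in the double knockout, Fosb was at -0.96 after quantile normalisation, Fosl1 was at -0.60 and Fos reached the rule after normexp background correction, and Fosl2 in p53-/- was at -0.47 when both of its probes were averaged.

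The median log2 difference of the 10 members from WT was -0.10 in Aspp1-/-, -0.42 in p53-/- and -0.92 in the double knockout, beside 0.01, 0.02 and 0.01 for the genes well above background on all arrays. By family the median in the double knockout was -1.25 for the 4 FOS genes, -0.81 for the 3 JUN genes and 0.54 for the BATF pair. In the double knockout against WT, 8 members were below 0, against 47.5% of genes. The 7 FOS, JUN and MAFF genes that were well above background on all arrays ranked between 6 and 691 from the lowest of 19138.

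The signal stepped down from WT to Aspp1-/- to p53-/- to the double knockout in 7 members (Fos, Fosb, Fosl1, Fosl2, Jun, Jund and Maff), an order that 9.01% of genes had. Only in Fosl2, Jund and Maff did every step exceed the scanner error. In Fos, Fosb, Fosl1 and Jun the WT and Aspp1-/- arrays lay within it, and in Fos so did Aspp1-/- and p53-/-. The Fos spots of Aspp1-/- (7.51 to 7.64) nevertheless all lay above those of p53-/- (7.32 to 7.48). For Jund the difference between Aspp1-/- and WT was -0.23 ± 0.20, and it was within the error with normexp (-0.17) and quantile normalisation (-0.19). After quantile normalisation the difference between Aspp1-/- and WT was 0.00 for Jun and 0.02 for Fosb, so their order turned, and that of Fosb also turned with normexp and in the authors' table. Fosl2 lost the order when its probes were averaged, with p53-/- then above Aspp1-/-. Batf and Batf3 had the reverse order, as had 9.51% of genes, though no neighbouring arrays of Batf differed beyond the scanner error, and Batf lost that order with normexp and in the authors' table. The double knockout was the lowest array in 8 members, against 29.7% of genes.

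The arrays allow Aspp1 loss to be set side by side with p53 present and with p53 lost, each within a slide row but across columns. With p53 present, Aspp1 loss went with log2 differences of -0.60 (Maff) to 0.13 (Batf) and none past the rule. In cells without p53, it went with -1.98 (Fosl2) to 0.44 (Batf3), and Fos, Fosb, Fosl1 and Junb were at -0.70, -0.60, -0.67 (a bound) and -0.59. For p53 loss, the median over the 10 members was -0.42 with Aspp1 present and -0.81 with Aspp1 lost, across slide rows in both cases.

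The double knockout can also be read against the sum of the single differences from WT. For Fosl2 that sum was -1.67 and the double knockout stood at -3.12, a departure from additivity of -1.45 ± 0.29. Fosl2 was the only member with a departure of 1 log2 unit or more, against 1.06% of genes at -1 or lower and 0.768% at 1 or higher. The departure was -0.58 for Fos, -0.59 for Fosb and -0.66 for Junb, each ± 0.29. In Junb the single differences summed to 0.05, and the double knockout stood at -0.61. It was -0.45 ± 0.46 for Fosl1, -0.34 ± 0.29 for Jun, -0.10 ± 0.29 for Jund and -0.06 ± 0.29 for Batf. Only Batf3 (0.33 ± 0.38) and Maff (0.24 ± 0.29) had a double-knockout value above the sum, in both cases within the scanner error. Below 0, the share over all genes was 54.2%, and 8 of the 10 members were.

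**Figure D4:**
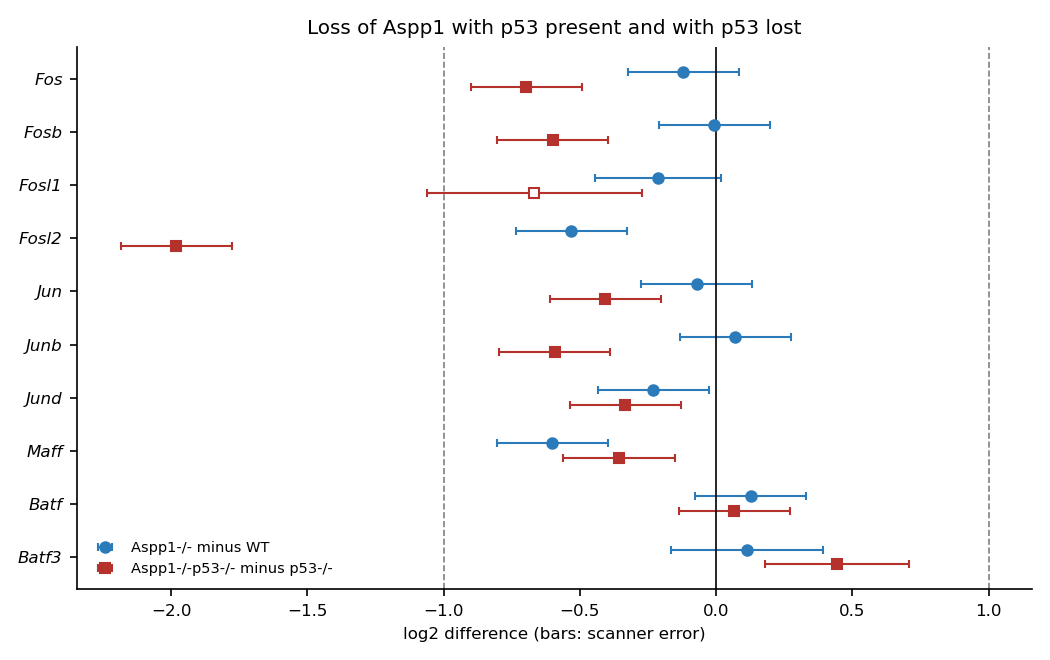
Log2 difference with loss of Aspp1 (horizontal axis) in cells with p53 (Aspp1-/- minus WT, blue circles) and without p53 (double knockout minus p53-/-, red squares), with scanner errors as bars, the 2-fold rule as dashed lines and open symbols for bounds. Fosl2 is the only member past the rule, at -1.98 in cells without p53, whereas the 2 values of Jund (-0.23 and -0.33) lie close together.

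A model with additive terms for Aspp1 loss and p53 loss leaves 1 residual degree of freedom over the 4 arrays, and its residual holds noise and any departure from additivity together. With limma over 22969 genes or transcripts, 0 were called for either term at a Benjamini-Hochberg adjusted p below 0.05. At an unadjusted p below 0.05 there were 1099 (4.78%) for Aspp1 loss and 1724 (7.51%) for p53 loss. Among the members, 2 had such an unadjusted p for Aspp1 loss (Jund and Maff) and 5 for p53 loss (Fosl1, Jun, Jund, Batf3 and Maff), and limma's adjusted p lay between 0.655 and 0.755 for all 10 in both terms. The estimate for p53 loss was -1.01 ± 0.10 (SE) for Maff, -0.56 ± 0.07 for Jund and -1.86 ± 0.51 for Fosl2. For Aspp1 loss the estimates were -0.48 ± 0.10, -0.28 ± 0.07 and -1.26 ± 0.51 for the same genes.

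Partners and regulators of AP-1 were taken from lists of gene names. Among 20 other bZIP partners, 18 were well above background on at least 1 array. Of the 17 with a value in the double knockout against WT, none was higher by the rule, and the median was -0.08. By the rule 2 were lower, against 2.47% of all genes or transcripts. The lower ones were Atf3, a stress-induced factor that pairs with JUN proteins, at -3.49 ± 0.20, and Crem, a CRE-binding factor with an inducible repressor form, at -2.14 ± 0.21. Both were also past the rule in p53-/-, at -1.78 and -1.15. Nfe2l3 was higher in p53-/- against WT as a bound, at 1.31 ± 1.45 and so within its scanner error. The share of higher genes or transcripts in that comparison was 3.66%. It was dim, and well above background on the p53-/- array alone. The other measured partners lay between -0.58 (Mafk) and 0.44 (Batf2) in the double knockout, with Atf2 and Nfe2l2 both at -0.06. Of the IRF proteins that work with BATF, Irf4 was lower in the double knockout by -1.31 ± 0.31 against WT and Irf8 stood at 0.29 ± 0.20.

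None of the kinases and SRF-type factors that act upstream of AP-1 genes was past the rule in any of the 5 comparisons, of 18 to 19 with a value in each. Their median was 0.01 in Aspp1-/-, -0.00 in p53-/- and -0.05 in the double knockout against WT, and in the last the extremes were -0.41 and 0.54, the latter for Mapk8, which encodes the kinase JNK1. In the double knockout against WT, where 2.47% of genes or transcripts were lower, genes of AP-1 turnover and feedback held 4 lower of 14. These were Dusp5 (-2.14 ± 0.21) and Dusp10 (-1.89 ± 0.23), phosphatases of ERK and of JNK and p38, and Zfp36 (-1.24 ± 0.20) and Zfp36l1 (-1.15 ± 0.20), which promote decay of AU-rich RNAs. Dusp10 was also past the rule in p53-/- (-1.36 ± 0.22).

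Of 21 genes described as AP-1 targets, 16 were well above background on at least 1 array. In the double knockout against WT, 3 were lower, against 2.47% of all genes or transcripts, and none higher, with a median of -0.24. F3, the coagulation initiator tissue factor, was at -2.92 ± 0.29, Plaur, the urokinase receptor, at -2.19 ± 0.20, and Areg, an EGF receptor ligand, at -2.10 as a bound. Most targets were not past the rule, among them Vim (-0.73), Cd44 (0.05) and Ccnd1 (0.25). A list of 22 other immediate-early and handling stress genes on the arrays shares Atf3, Zfp36 and Dusp1 with the lists above. It held 12 lower in the double knockout against WT, 3 in p53-/- and 1 in Aspp1-/-. The shares over all genes or transcripts were 2.47%, 1.54% and 2.16%. Medians of the list were -1.17, -0.40 and -0.05. In the double knockout 4 of its genes were above 0, among them Hspa1a at 0.77, Hspb1 at 0.58 and Myc at 0.45.

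**Figure D5:**
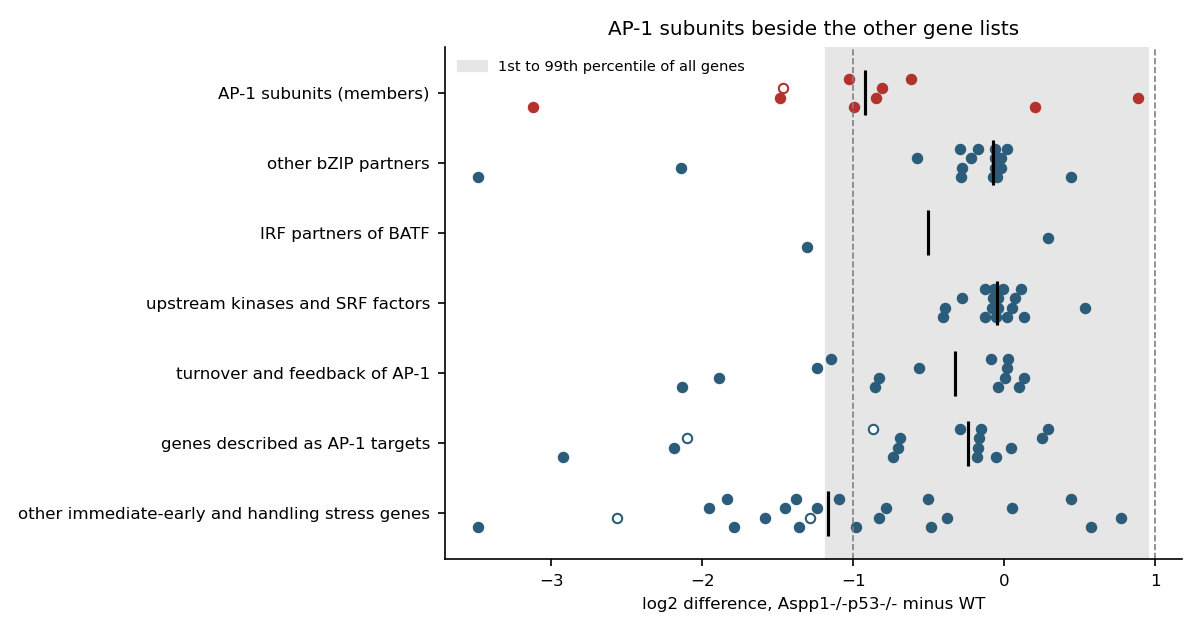
Log2 difference between the double knockout and WT (horizontal axis) for the AP-1 subunits and for each list of related genes, 1 point per gene with open circles for bounds, a black line at the median of each list and a grey band from the 1st to the 99th percentile of all genes (-1.18 to 0.96). The upstream kinases and SRF factors lie between -0.41 and 0.54, and the medians of the AP-1 subunits (-0.92) and of the other immediate-early genes (-1.17) are the lowest.

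The genes whose pattern over the 4 arrays was most like that of a member were ranked by the root mean square difference of centred log2 values, over 13307 RefSeq genes and for the 3 members that span at least 1 log2 unit and were well above background throughout. Nearest to Fosl2 were F3 (0.095), Cd83 (0.14), Apol8 (0.16), Atf3 (0.24) and Rgcc (0.25). For Fosb they were Lilrb4a (0.039), Rhob (0.042), Plk3 (0.048), Fzd9 (0.052) and Arrdc3 (0.056), and for Maff Amigo3 (0.082), Tppp3 (0.089), Xpo7 (0.096), Irs2 (0.099) and Ddit3 (0.10). The ranking rests on 4 arrays and is a description.

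The labels of the arrays were borne out by the targeted genes: Ppp1r13b was at -2.62 in Aspp1-/- against WT and -2.52 in the double knockout against p53-/-, and Trp53 at -2.18 in p53-/- against WT and -2.13 in the double knockout against Aspp1-/-. On every array the 10 LSK markers were all well above background, with a summed scaled signal of 341 to 353, while Cd3d, Cd8a, Pax5 and Ncr1, which mark lymphoid cells, were not on any. Granulocyte markers had medians of -0.19 in Aspp1-/- and -0.17 in p53-/- against WT, with none past the rule. In the double knockout 8 of 10 were lower against WT (median -1.70), against 2.47% of all genes or transcripts. Their summed scaled signal was 157, 136 and 141 on the WT, Aspp1-/- and p53-/- arrays and 54.1 on the double knockout. Among stromal and endothelial markers 2 of the 5 detected were lower against WT, and among dendritic cell markers 1 of the 6 detected was (Cd83, at -2.72). No marker in the lists of T, B, natural killer, erythroid, megakaryocytic, mast and basophil, or monocyte and macrophage genes was past the rule in that comparison. The part of these markers in the AP-1 values was not tested. In bulk RNA, fewer cells that hold an RNA and less of it per cell cannot be told apart.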

How the data were processed

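Per the file headers, the arrays were read with version 10.7.3.1 of Feature Extraction, the Agilent scanner software, and probe positions are those of mm9. Its processed intensity, used as deposited, is linear and background-subtracted, with no normalisation between arrays. Flags for outlier, saturated and well-above-background spots are other values that the authors deposited. The authors' value table holds log2 values. Across 26465 probes, differences from WT computed from it and from the scanner values had r = 1, and its column medians were -0.0661, -0.0422, 0.0267 and 0.0478 for WT, Aspp1-/-, p53-/- and Aspp1-/-p53-/-. Each probe there is centred over the arrays, and the constant taken from each array stays unknown.

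Control spots (3671 per array) and outlier spots (120 to 172) were removed, repeat spots averaged by probe, and log2 signals were set relative to each array's 75th percentile, a signal of 537 to 599. A gene took the brightest of its probes that were well above background somewhere, which left 22969 genes or transcripts. Where the dimmer array was not well above background, the difference is a bound against the higher of the probe's own value and the lowest well-above-background signal of that array. Additive models used limma 3.58.1 with lmFit and eBayes in R 4.3.3. The code was tested on simulated data. With 1 array per genotype the precision is limited by the number of arrays. The members and the gene and marker lists were chosen with earlier results of these data known. Named genes were all members, up to 4 list genes past the 2-fold rule per list and comparison with up to 4 examples, and the 5 nearest patterns. The 6 alternatives were the background correction, scaling (2), the filter on dim probes, averaging of probes and the authors' table.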

Additional observations from a re-analysis of the deposited data

How the results depend on the processing

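Over the 6 alternatives, 346 of 354 values of single members moved by less than their scanner error and 8 moved by more. Much of that count was fixed in advance. Leaving out dim probes returned the same 54 values, and averaging could change only Fosl2, the member with 2 probes. The other percentile scaling and the authors' table shift all genes of an array alike. Normexp and quantile normalisation could move genes separately. With normexp 5 values moved by more than the error and 55 did not, and with quantile normalisation all 60 stayed within it. None of the values past the 2-fold rule changed sign. Below the rule, 4 values did, all for Aspp1-/- against WT: Fosb with normexp, quantile normalisation and the authors' table, and Jun with quantile normalisation. The count of members past the 2-fold rule in p53-/- against WT was 1 in place of 2 when the probes of a gene were averaged, because Fosl2 then stood at -0.47 with its dim second probe included. That average also gave -2.35 for Fosl2 in the double knockout against WT and -1.72 against Aspp1-/-. With normexp, Fosl1 was at -0.44 in p53-/- and -0.60 in the double knockout against WT, and Batf3 at 0.54 in the latter. The count for the double knockout against WT was 3 or 4 under every alternative, and against Aspp1-/- 2 or 3. Fosl2 was past the rule in all 3 comparisons of the double knockout, and alone in its departure from additivity, under every alternative. The double knockout was the lowest array for the same 8 members, less Fosl1 when dim probes were filtered out, and the order WT, Aspp1-/-, p53-/-, double knockout held for 5 to 7 members. Over all genes, those lower in the double knockout than in WT numbered 530, against 219 with normexp, 278 with dim probes left out and 932 in the authors' table without bounds, so the background share ran from 1.05% to 4.30%. With limma, 0 genes were called under every alternative, and the lowest adjusted p of a member was 0.313, for p53 loss without dim probes. No paired analysis was possible because each genotype had 1 array. Signal over background limits Fosl1, Batf3 and the second Fosl2 probe.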
